A study of Homo sapiens with 12 samples.

Results

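The EGR and NR4A genes are immediate early transcription factors, and 7 of them were looked for by symbol among the genes that the authors listed as changed by lipopolysaccharide (LPS): EGR1, EGR2, EGR3, EGR4, NR4A1, NR4A2 and NR4A3. The authors' lists, 1 for each genotype, held 3281 genes between them, and 6 of the 7 were found. EGR1, EGR3, NR4A1, NR4A2 and NR4A3 were in both lists, EGR4 was in the wild-type list alone, and EGR2 was in neither and was not analysed here. RNA-seq had been done on THP-1 cells, a leukaemia line of human monocytes that the phorbol ester PMA turns macrophage-like. The question in the study's title concerns the S80A form of NFKB1, in which alanine stands in place of a serine in p50, a subunit of NF-κB. The 12 libraries formed 4 groups of 3: S80A cells after 3 hr with LPS, wild-type (WT) cells after 3 hr with LPS, S80A cells without LPS (0 hr), and WT cells without LPS (0 hr). Cells of all 4 groups had first been given PMA at 25 ng/ml for 72 hr and rested for 4 days, and the LPS dose was 10 ng/ml. The labels do not say how the S80A cells were made or whether they are 1 clone, so genotype and cell line cannot be told apart. Nor do they say whether replicates came from separate cultures, and the p-values therefore cover the spread of these libraries alone, which may be technical.

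EGR proteins are zinc-finger factors whose genes are switched on within minutes of a stimulus, mainly through the ERK kinase pathway and the serum response factor SRF, which binds CArG boxes in their promoters. NR4A proteins are orphan nuclear receptors that act without a known natural ligand, so that their activity follows their abundance, and their genes respond to CREB bound at cyclic AMP response elements (CRE). In macrophages, LPS sensed by TLR4 induces both families. EGR factors take part in monocyte differentiation, and NR4A receptors are best known there for restraining inflammatory genes.

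All values are scaled reads, the read count of a gene divided by 1 size factor per library. Reads on the listed genes ranged between 5789918 (S80A replicate 1 after LPS) and 1924562 (WT replicate 1 before LPS), which leaves out all other genes and is not the depth of the libraries. Over the listed genes, the first principal component (71.1% of the variance) parted the libraries by LPS and the second (17.6%) by genotype. These genes had been selected for a change with LPS, so a leading LPS component and its large share were built in. S80A replicate 1 stood apart from the other S80A libraries at both times. On the second component it scored 16.9 after LPS and 16.7 before, where S80A replicates 2 and 3 scored 32.7 to 46.7 and WT libraries -40.4 to -25.0. Results that rest on this library are given with and without it. WT replicate 1 was kept in those fits, though it too differed more from WT replicates 2 and 3 than these did from each other. At 3 hr the chi-square per gene of the WT reads was 59.9 and 45.9 against 10.0, and at 0 hr 24.6 and 19.3 against 9.44. Of 13 monocyte and macrophage markers, 3 were among the listed genes (CD14, FCGR3A and CD163), and their summed level was 2058 to 2570 scaled reads in S80A cells at 3 hr, 1716 to 2482 in WT cells at 3 hr, 3325 to 7372 in S80A cells at 0 hr and 3735 to 5700 in WT cells at 0 hr. No T cell, erythroid, epithelial, fibroblast or endothelial marker was among the listed genes, and markers outside the lists were not analysed here.

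The promoters of EGR1 and NR4A3 are shown because these are the most abundant gene of each family in WT cells after LPS, per length of transcript, and because they carry different elements. Each is the run of 250 bases before the gene's RefSeq start in GRCh38.p14, 5′ to 3′ on the plus strand, with CArG boxes and CRE cores in capitals. EGR1 is at chr5:138465229-138465478 and NR4A3 at chr9:99821635-99821884.
EGR1: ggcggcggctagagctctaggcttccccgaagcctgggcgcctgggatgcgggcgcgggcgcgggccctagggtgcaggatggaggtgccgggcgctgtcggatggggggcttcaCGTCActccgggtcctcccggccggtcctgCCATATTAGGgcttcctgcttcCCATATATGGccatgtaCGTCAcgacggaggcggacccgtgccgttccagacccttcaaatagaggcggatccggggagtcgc
NR4A3: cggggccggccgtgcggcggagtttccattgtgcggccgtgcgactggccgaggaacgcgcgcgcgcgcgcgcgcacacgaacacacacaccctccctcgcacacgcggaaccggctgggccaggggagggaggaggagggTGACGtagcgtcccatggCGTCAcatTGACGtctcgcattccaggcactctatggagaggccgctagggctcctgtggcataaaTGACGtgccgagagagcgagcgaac

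The EGR1 window held 2 CArG boxes, at -105 and -83, and 2 CRE cores (TGACG), at -135 and -66, where a position is that of the leftmost base and -1 is the base before the RefSeq start. The NR4A3 window held 4 CRE cores, at -109, -91, -83 and -25, and no CArG box. On either strand, a CArG box was found in 1.16% and a CRE core in 21.2% of the 35116 promoter windows of this length. The full CRE (TGACGTCA, which contains the core) was in neither window and in 1.65% of all windows. Promoter windows of 4 of the 6 measured genes were searched, those of EGR1, EGR4, NR4A1 and NR4A3. The EGR4 window held 2 CRE cores and 2 NF-κB sites, a motif present in 6.88% of windows. The 2 windows of NR4A1 held no match to any motif searched. Those were the CRE and its core, the CArG box, the NF-κB site, the EGR site (GCGTGGGCG or GCGGGGGCG, in 5.37% of windows), the NR4A response element NBRE (AAAGGTCA, 1.05%) and AP-1 (TGAGTCA or TGACTCA, 4.20%). These matches describe letters in the windows shown and were not measured as binding sites.

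LPS raised NR4A3 and NR4A1 most of the 6 genes in both genotypes, and NR4A2 and the EGR genes less. In the authors' deposited tables, 5 of the 7 genes were called higher at 3 hr in S80A cells and 6 of the 7 in WT cells, where 8.67% and 8.24% of the 17486 tested genes were called higher in S80A and WT cells. The genes were found through these tables, so the calls are a description of the members found. The scaling of the libraries affected the size of these changes. With TMM factors computed from the listed genes, the median LPS change of all listed genes was 0.33 log2 in S80A cells and 0.17 in WT cells, against 0.94 in S80A cells and 0.79 in WT cells with the authors' size factors, and the LPS changes of the 6 genes were smaller too but kept their direction. In bulk RNA, fewer responding cells and less RNA per cell cannot be told apart.

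NR4A3, the NR4A gene on chromosome 9 (99821855 to 99866891, plus strand, GENCODE 29 on GRCh38), had the highest level of the 6 genes per kb of merged exon after LPS. It had 5458, 2134 and 1526 scaled reads in S80A cells at 3 hr and 3766, 3054 and 3597 in WT cells at 3 hr. At 0 hr it had 23.9, 16.3 and 16.8 in S80A cells and 29.4, 16.9 and 24.2 in WT cells. Every library after LPS lay far above every library before it, and S80A replicate 1 was the highest of all 12. The group means after LPS were 160 times those before in S80A cells and 148 times in WT cells. The authors' deposited log2 fold changes were 6.95 in S80A and 6.86 in WT cells, which ranked 36 of 1516 rising genes in S80A cells and 40 of 1441 in WT cells.

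NR4A1 (Nur77), on chromosome 12 (52022832 to 52059507, plus strand), is the NR4A gene whose genotypes lay apart before LPS. It had 2263, 1554 and 1020.3 scaled reads in S80A cells at 3 hr and 1633, 1146 and 1008.5 in WT cells at 3 hr. Before LPS the values were 15.9, 3.88 and 5.25 in S80A cells, which rest on 26 reads in all, and 24.2, 19.3 and 25.8 in WT cells. The genotypes overlapped after LPS and were separate before it, where every S80A library lay below every WT library. The means after LPS were 193 times those before in S80A cells and 54.6 times in WT cells, and the authors' deposited log2 fold changes were 7.21 in S80A and 5.55 in WT cells. The annotated antisense gene AC025259.3 overlaps NR4A1, and the strand setting of the counting is not given in the sources used here, so reads of the pair may not be fully separated.

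NR4A2 (Nurr1), on chromosome 2 (156324432 to 156342348, minus strand), had 1506, 387.6 and 201.4 scaled reads in S80A cells at 3 hr and 803.4, 728.8 and 599.5 in WT cells at 3 hr. Without LPS it had 60.8, 14.7 and 19.9 in S80A cells and 53.7, 35.4 and 37.9 in WT cells. S80A replicate 1 was the highest library at either time and the other S80A libraries were the lowest, so the S80A groups straddled the WT groups. The authors' deposited log2 fold changes were 3.83 in S80A and 3.51 in WT cells.

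EGR1, on chromosome 5 (138465490 to 138469315, plus strand), had 252.3, 246.2 and 443.6 scaled reads in S80A cells at 3 hr and 844.5, 356.1 and 306.2 in WT cells at 3 hr. At 0 hr the values were 35.9, 64.4 and 69.3 in S80A cells and 90.1, 53.1 and 31.5 in WT cells. The genotypes overlapped at both times, and within each genotype the times did not, as for 86.6% of the listed genes in S80A cells and 91.3% in WT cells. WT replicate 1 was the highest library at both times. The authors' deposited log2 fold changes were 2.33 in S80A and 2.94 in WT cells, which ranked 682 of 1516 rising genes in S80A cells and 463 of 1441 in WT cells.

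EGR3, an EGR family member on chromosome 8 (22687659 to 22693302, minus strand), had 76.2, 110.4 and 145.1 scaled reads in S80A cells at 3 hr and 325.4, 115.2 and 89.9 in WT cells at 3 hr. Before LPS it had 12.0, 14.7 and 18.9 in S80A cells and 6.06, 8.04 and 6.45 in WT cells. These values rest on 49 reads in all in S80A cells and 25 in WT cells. Every S80A library lay above every WT library before LPS, and after LPS the genotypes overlapped, with WT replicate 1 the highest and WT replicate 3 among the lowest. The authors' deposited log2 fold changes were 2.68 in S80A and 4.33 in WT cells. The annotated antisense gene AC055854.1 overlaps EGR3, with the same limit on the counting as for NR4A1.

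EGR4, on chromosome 2 (73290929 to 73293705, minus strand), had the fewest reads of the 6 genes. It had 3.36, 23.0 and 15.6 scaled reads in S80A cells at 3 hr and 29.4, 26.0 and 34.3 in WT cells at 3 hr. The 0 hr values were 0, 10.9 and 4.20 in S80A cells and 6.06, 0.804 and 1.61 in WT cells. These values rest on 36 reads in S80A cells at 3 hr, 82 in WT cells at 3 hr, 18 in S80A cells at 0 hr and 10 in WT cells at 0 hr. In WT cells the times were separate and the authors' deposited table listed EGR4 at a log2 fold change of 2.74. In S80A cells the times overlapped, and the limma test on log2(scaled reads + 1) gave a difference of 1.61 ± 0.98 (SE) with an adjusted p of 0.157, while 85.2% of the listed genes passed that test in either direction. That S80A result depended on the libraries and on pairing. Without S80A replicate 1 at both times the limma adjusted p was 0.0437, while it was 0.476 without that replicate at 0 hr alone (0.61 log2) and 0.0747 without it at 3 hr alone (2.34 log2). With the replicate number as a block the adjusted p was 0.00463, and over all alternatives it ran from 0.00463 to 0.479. The genotype difference of the EGR4 response was -1.65 ± 1.22 log2 (SE, limma adjusted p = 0.367), so its presence in 1 list alone does not show that the genotypes differed.

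**Figure D1:**
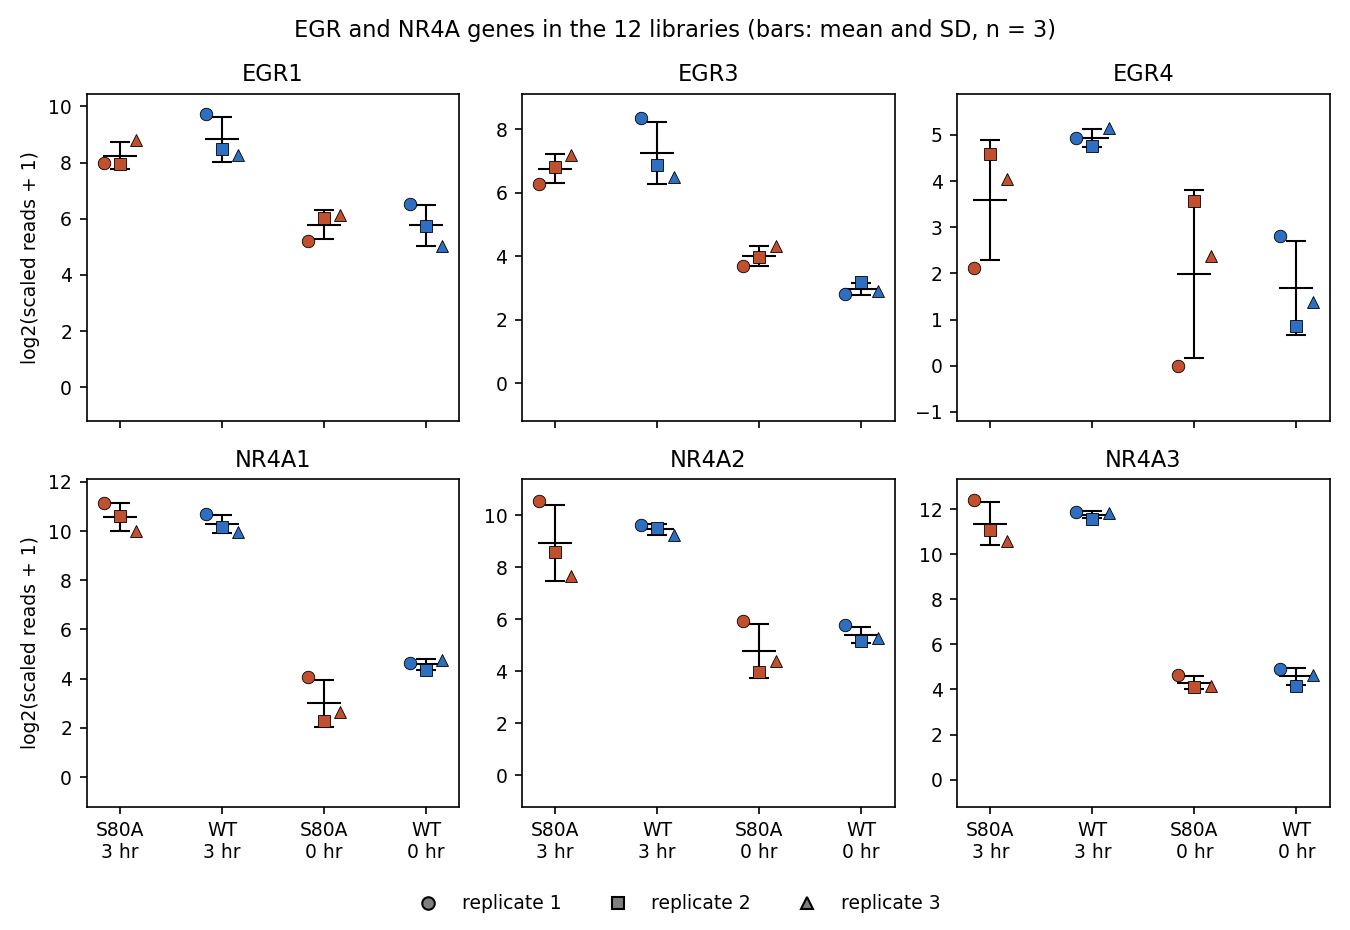
Levels of the 6 measured EGR and NR4A genes as log2(scaled reads + 1) on the vertical axis, with the 4 groups along the horizontal axis, 1 symbol per library (circle, square and triangle for replicates 1, 2 and 3; red S80A, blue WT) and bars for the mean and SD (n = 3). All 3 NR4A genes lie far higher at 3 hr than at 0 hr in both genotypes, and EGR4 at 3 hr in S80A cells (3.36 to 23.0 scaled reads) overlaps EGR4 at 0 hr (0 to 10.9).

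Levels were compared between the genes per kb of merged exon in GENCODE 29, as the authors' annotation is not given in the sources used here. Merged exons can be longer than the transcript that the cells make (7295 bases for NR4A1, 6314 for NR4A3). The order of the genes depends on this divisor. After LPS, NR4A3 had 481 ± 335 scaled reads per kb in S80A cells and 550 ± 58.9 in WT cells (SD, n = 3). NR4A1 followed with 221 ± 85.4 in S80A and 173 ± 45.0 in WT cells, and NR4A2 with 176 ± 178 in S80A and 179 ± 26.0 in WT cells. EGR1 had 100.1 ± 35.8 in S80A and 160 ± 94.8 in WT cells. In WT cells NR4A1, NR4A2 and EGR1 were within 1 SD of each other, and in S80A cells the SD of NR4A2 spanned the means of the other pair. EGR3 (22.8 ± 7.09 in S80A, 36.4 ± 26.6 in WT) and EGR4 (5.88 ± 4.17 in S80A, 12.6 ± 1.76 in WT) were the lowest. Before LPS the order was another one, with EGR1 on top at 18.0 scaled reads per kb in S80A and 18.5 in WT cells, NR4A2 next at 8.02 in S80A and 10.7 in WT cells, and the other 4 genes at 1.15 to 3.72.

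Before LPS, EGR3 was higher in S80A than in WT cells by limma, a call that edgeR and DESeq2 did not make. NR4A1 was lower in all 3 S80A libraries but outside the threshold, and the differences of the other 4 genes were within their spread. EGR3 averaged 15.2 ± 3.49 scaled reads in S80A cells and 6.85 ± 1.05 in WT cells (SD, n = 3 each), a difference of 1.03 ± 0.20 log2 (SE) with a limma adjusted p of 0.0178. It was the 1 gene of the 6 that passed, where 30.7% of the 3281 listed genes did in either direction. The EGR3 call held in 9 of 17 alternatives. It was lost with edgeR (adjusted p = 0.0583 with the authors' size factors, 0.119 with TMM factors), with DESeq2 (adjusted p = 0.126), in limma with a trend (0.0517) or with all 12 libraries in the fit (0.0813), and without WT replicate 1 (0.06), WT replicate 3 (0.0683) or S80A replicate 2 (0.0619). NR4A1 averaged 8.35 ± 6.60 scaled reads in S80A cells and 23.1 ± 3.40 in WT cells. Its difference was -1.58 ± 0.49 log2 (SE, limma adjusted p = 0.0623), lower in 3 of 3 S80A libraries and just outside the threshold. Without S80A replicate 1 the NR4A1 difference was -2.12 log2 with a limma adjusted p of 0.00382, and edgeR with TMM factors gave an adjusted p of 0.0363. Over 17 alternatives it ran from 0.00382 to 0.162, and 5 passed. Groups that do not overlap, as for EGR3 and NR4A1, were found for 49.1% of the listed genes.

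The remaining differences at 0 hr were 0.03 ± 0.46 log2 for EGR1, 0.30 ± 1.04 for EGR4, -0.64 ± 0.55 for NR4A2 and -0.28 ± 0.26 for NR4A3 (SE), with limma adjusted p-values of 0.98, 0.849, 0.406 and 0.437. The sign for EGR1 turned to -0.20 with TMM factors. NR4A2 passed without S80A replicate 1, at -1.23 log2 with a limma adjusted p of 0.0241, against a range of 0.0241 to 0.771 over its alternatives. WT replicate 1, the WT library with the most NR4A2, was kept in that fit. The median difference of all listed genes between S80A and WT cells was 0.19 log2 at either time with the authors' size factors and within 0.02 log2 of 0 with TMM factors. Relative to that shift EGR3 was 0.83 log2 higher in S80A cells with TMM factors in limma (adjusted p = 0.0304) and NR4A1 was lower by more, at -1.81 log2 (adjusted p = 0.0519). Of the 1007 genes called at 0 hr with the authors' size factors, 660 were higher and 347 lower in S80A cells, and of the 964 called with TMM factors, 458 were higher and 506 lower.

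After LPS, no gene of the 6 passed the limma test between S80A and WT cells, where 47.0% of the listed genes did. The number with an unadjusted p under 0.05 was 0 as well, and edgeR and DESeq2 called 0. EGR4 came nearest, at 14.0 ± 9.92 scaled reads in S80A cells and 29.9 ± 4.18 in WT cells (SD, n = 3 each), with every S80A library below every WT library, as for 59.0% of the listed genes without overlap in either direction. Its difference was -1.35 ± 0.60 log2 (SE, limma adjusted p = 0.107), and its size rested on single libraries. It was -1.85 log2 without S80A replicate 2 (adjusted p = 0.0495) and -0.62 log2 without S80A replicate 1 (adjusted p = 0.0728), within a range of 0.0495 to 0.231 over its alternatives. The differences were -0.58 ± 0.44 for EGR1, -0.49 ± 0.51 for EGR3, 0.31 ± 0.35 for NR4A1, -0.52 ± 0.68 for NR4A2 and -0.41 ± 0.46 for NR4A3, with limma adjusted p-values of 0.319, 0.463, 0.492, 0.556 and 0.497. Without WT replicate 1 the EGR1 difference was -0.13 log2 and the EGR3 difference 0.070 log2, and without S80A replicate 1 the NR4A1 difference was 0.027 log2. Without S80A replicate 1, NR4A2 and NR4A3 were lower in S80A cells, at -1.33 log2 (adjusted p = 0.0178) and -0.94 log2 (adjusted p = 0.0158), the lowest values of ranges up to 0.98 and 0.976. Replicate 1 had the most NR4A2 and NR4A3 of the WT libraries too, and it was kept in that fit. The mean of NR4A2 was 698 ± 706 scaled reads in S80A cells and 711 ± 103 in WT cells, so the SD of the S80A group was as large as its mean.

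The LPS response itself was compared between the genotypes by the interaction term over all 12 libraries. No gene of the 6 passed in limma, where 14.1% of the listed genes did. That share includes genes listed for 1 genotype alone, which were selected in a way that favours a difference. With the test limited to the 1562 genes in both lists, which hold all of the 6 but EGR4, 70 passed. EGR3 and NR4A1 had an unadjusted p under 0.05 in the main test, in opposite directions. The response of NR4A1 was 1.89 ± 0.62 log2 (SE) larger in S80A than in WT cells, with an unadjusted p of 0.0107 and an adjusted p of 0.0629. It passed in DESeq2 (adjusted p = 0.0188), with a replicate block (0.0235), and without S80A replicate 1 at both times (2.14 log2, adjusted p = 0.005), whereas edgeR with TMM factors gave 0.0617, in a range of 0.005 to 0.137 over 23 alternatives. EGR3 differed by -1.52 ± 0.59 log2, a smaller response in S80A cells, with an unadjusted p of 0.0269 and an adjusted p of 0.108, and passed in none of the 23 alternatives. In both genes the separate groups were those before LPS and the overlapping groups those after it. The other differences were -0.61 ± 0.66 for EGR1, 0.12 ± 0.93 for NR4A2 and -0.13 ± 0.57 for NR4A3 (SE), with limma adjusted p-values of 0.55, 0.938 and 0.889. The signs for NR4A2 and NR4A3 changed between alternatives. On simulated counts at this size the test recovered 56% of the simulated 2 log2 differences and 14% of the 1 log2 ones, so differences of the size seen for EGR1 would mostly be missed.

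**Figure D2:**
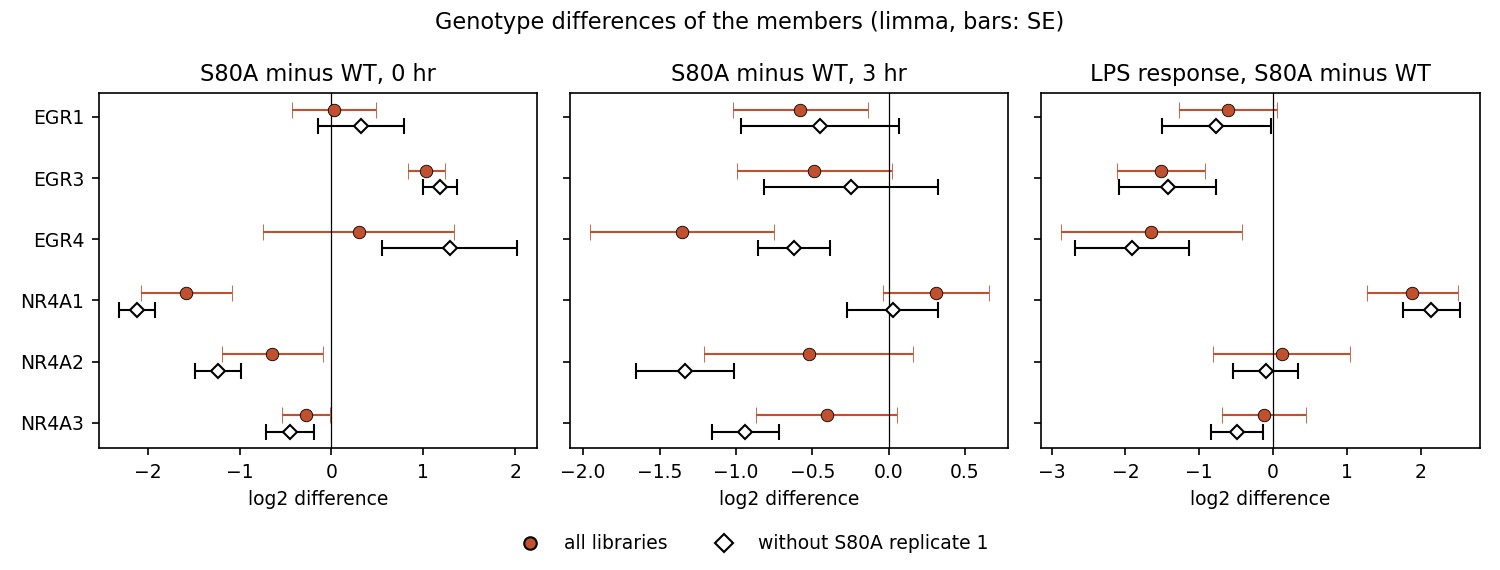
Differences between S80A and WT cells for the 6 genes at 0 hr, at 3 hr and in the LPS response, as limma log2 estimates on the horizontal axis with SE bars, from all libraries (red circles) and without S80A replicate 1 (white diamonds). EGR3 lies right of 0 before LPS (1.03) and NR4A1 left of it (-1.58), and leaving out S80A replicate 1 moves NR4A1 to -2.12 at 0 hr and NR4A2 to -1.33 at 3 hr.

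Within the groups, the 2 families spread in opposite ways across the S80A libraries. S80A replicate 1 differed over the listed genes as a whole too, with a chi-square per gene of 140 and 182 against 49.3 at 3 hr. Outside the 2 families, PTGS2 was highest and IER3 lowest in that library among the S80A libraries at 3 hr. The share of listed genes with either pattern was not computed. S80A replicate 1 had the highest NR4A1, NR4A2 and NR4A3 of the 3 S80A libraries at both times, and the lowest EGR3 and EGR4. For EGR1 it was the lowest at 0 hr, and at 3 hr it was close to replicate 2 (252.3 against 246.2 scaled reads). S80A replicate 3 had the most EGR1 and EGR3 and the least NR4A1, NR4A2 and NR4A3 after LPS. The ratio of NR4A3 to EGR1 reads within 1 library, which no size factor affects, was 21.6, 8.67 and 3.44 in S80A replicates 1, 2 and 3 at 3 hr, and 4.46, 8.58 and 11.7 in the WT replicates at 3 hr. At 0 hr it was 0.667, 0.253 and 0.242 in S80A cells and 0.327, 0.318 and 0.769 in WT cells. The ratio was above 3 in all libraries after LPS and below 1 in all libraries before it, and S80A and WT libraries overlapped at both times. WT replicate 1 had the most EGR1 at both times and the most EGR3 at 3 hr, unlike S80A replicate 1, whereas the NR4A2 and NR4A3 replicates at 0 hr and the NR4A1 and NR4A2 replicates at 3 hr had the same order in both genotypes. Whether culture, handling or library differences go with this spread was not tested.

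**Figure D3:**
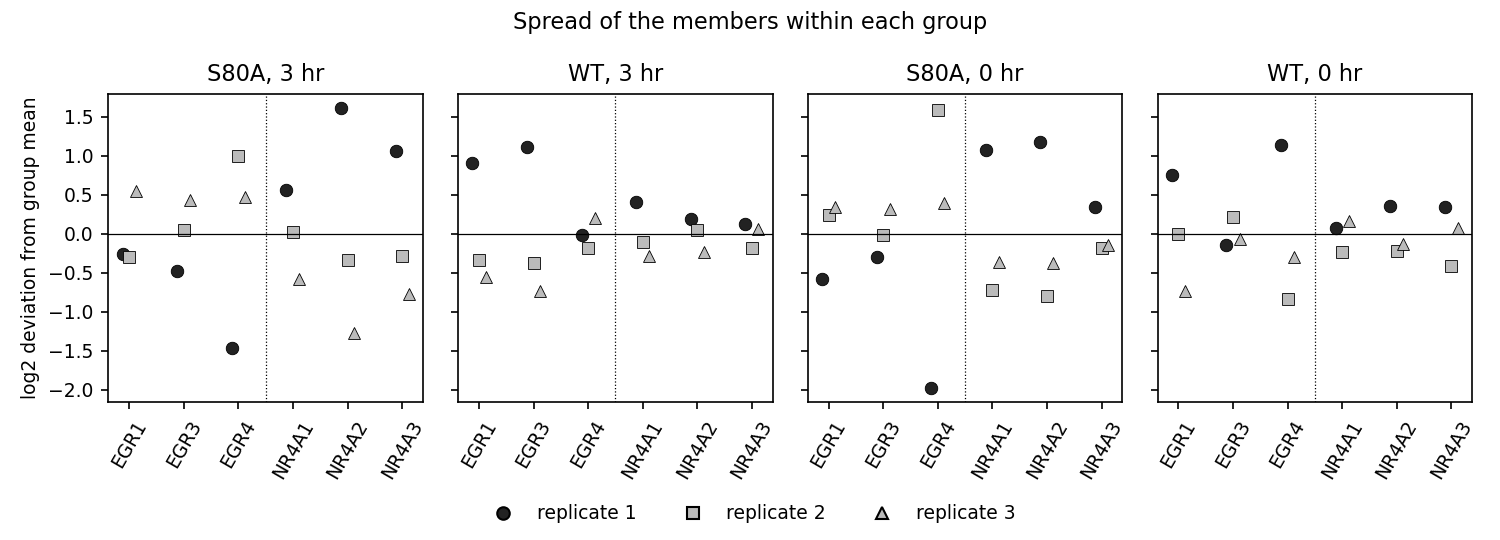
Deviation of each library from its group mean on the log2(scaled reads + 1) scale (vertical axis) for the 6 genes (horizontal axis) in each of the 4 groups, with replicate 1 in black and replicates 2 and 3 in grey. In both S80A panels replicate 1 lies below the mean for the EGR genes, left of the dotted line, and above it for the NR4A genes.

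**Figure D4:**
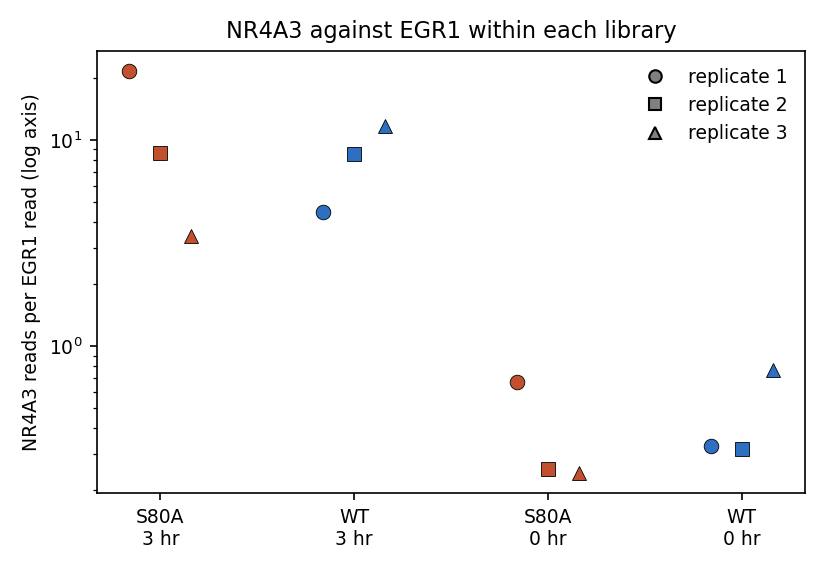
NR4A3 reads per EGR1 read in each of the 12 libraries (vertical log axis) by group (horizontal axis), with circle, square and triangle for replicates 1, 2 and 3. The ratio runs from 3.44 to 21.6 in S80A cells and 4.46 to 11.7 in WT cells at 3 hr, and from 0.242 to 0.667 in S80A cells and 0.318 to 0.769 in WT cells at 0 hr.

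The 6 genes were also set against each other and against all other listed genes by Pearson's r of log2(scaled reads + 1) over the 12 libraries. These r values are a description, since the points share the LPS step and the libraries. The NR4A genes had r of 0.964 to 0.982 with each other and EGR1 had r of 0.951 with EGR3. EGR4 had the lowest values, from 0.555 with NR4A2 to 0.824 with EGR1. The listed genes nearest to NR4A3 were REL, an NF-κB subunit (r = 0.996), TNIP3, an inhibitor of NF-κB signalling (0.996), and RNF144B (0.995). Nearest to NR4A1 were NFKBIZ, a nuclear cofactor of NF-κB (0.994), CYP27B1, the enzyme that activates vitamin D (0.994), and TNFAIP2 (0.993). The LPS response of NFKBIZ was estimated 1.68 log2 larger in S80A cells and did not pass (limma adjusted p = 0.0526), like that of NR4A1. NFKBIZ was picked for its high r with NR4A1 over these same libraries, so a value close to that of NR4A1 adds no separate evidence. Nearest to NR4A2 were the transcription factor ETS2 (0.981), SLC16A9 (0.978) and MS4A7 (0.977). Nearest to EGR1 were MIR6732 (0.961), PINX1 (0.956) and F3, which encodes tissue factor (0.954). Nearest to EGR3 were BRPF3 (0.972), MIR6732 (0.972) and SMAD7, an inhibitor of TGF-β signalling (0.965). Nearest to EGR4 were a transcript with a clone name only (0.913), NCF1B (0.910) and JADE2 (0.894).

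Most other immediate early genes rose as well. Of 40 symbols looked for, 31 were listed, of which 26 rose and 2 fell in S80A cells, and 28 rose and 0 fell in WT cells, in the authors' deposited tables. Of all genes the authors tested, 5.67% fell in S80A cells and 5.11% in WT cells, beside the shares that rose given above. Their median log2 fold changes in those tables were 2.83 in S80A and 3.08 in WT cells, against 1.30 in S80A and 1.37 in WT cells over all genes of each table. PTGS2, which encodes the prostaglandin enzyme COX-2, stood highest at 6.36 in S80A and 7.07 in WT cells, above the phosphatase gene DUSP2 (4.65 in S80A, 5.25 in WT) and IER3 (4.68 in S80A, 5.17 in WT). Before LPS, 19 of the 31 were higher and 1 was lower in S80A than in WT cells in limma, with a median difference of 1.18 log2, where 20.1% of all listed genes were higher and 10.6% lower. At 3 hr 16 were higher and 1 was lower, with a median of 0.81 log2, where 29.2% of all listed genes were higher and 17.7% lower. EGR3, which is not counted in that list, differed in the same direction at 0 hr, and NR4A1, outside the threshold, in the other. The LPS response was larger in S80A cells for 2 of the 31 and smaller for 3, where it was larger for 7.19% and smaller for 6.95% of all listed genes. MYC, in the S80A list alone, had 2741 ± 566 scaled reads in S80A and 1404 ± 159 in WT cells at 3 hr, and 775 ± 120 in S80A and 2024 ± 290 in WT cells at 0 hr. KLF4, also in the S80A list alone, had 268 ± 25.3 in S80A and 403 ± 72.6 in WT cells at 3 hr, and 1288 ± 115 in S80A and 516 ± 39.2 in WT cells at 0 hr. Genes listed for 1 genotype alone were selected in a way that favours a difference of the response.

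Few genes upstream of the 2 families were listed. Of 18 symbols for SRF, its partners, CREB and MEF2 factors, 4 were listed. The 18 count the SRF partners MRTFA and MRTFB under both their older and their newer symbols, so the number of separate genes is smaller. Of the 4 listed, 2 rose and 1 fell in S80A cells and 1 rose in WT cells in the authors' deposited tables. CREB1 (1.30) and MEF2D (-1.12) were listed in S80A cells alone, and CREB5 (1.96) in WT cells alone. Of 15 genes of the ERK pathway, mostly feedback genes but with the upstream kinase gene MAP3K8 among them, 8 were listed. Of these, 5 rose and 3 fell in S80A cells and 4 rose and 1 fell in WT cells. In limma, 6 of the 8 were higher and 0 lower in S80A than in WT cells at 0 hr. At 3 hr 3 were higher and 1 lower, and the LPS response of 3 was smaller in S80A cells. MAP3K8 was the 1 that was lower at 3 hr and was among the 3 with a smaller response. Over all listed genes 20.1% were higher and 10.6% lower at 0 hr, 29.2% were higher and 17.7% lower at 3 hr, and 6.95% had a smaller response. DUSP5, an ERK phosphatase, had 3665 ± 1064 scaled reads in S80A and 2769 ± 285 in WT cells at 3 hr, and 414 ± 247 in S80A and 43.5 ± 13.7 in WT cells at 0 hr. MAP3K8 (TPL2), the kinase that links TLR4 to ERK in macrophages, had 3156 ± 1149 in S80A and 5865 ± 378 in WT cells at 3 hr, and 233 ± 13.5 in S80A and 162 ± 30.8 in WT cells at 0 hr. Both had a smaller LPS response in S80A cells, with a difference of -2.63 ± 0.71 log2 (SE, limma adjusted p = 0.0332) for DUSP5 and -1.48 ± 0.34 (adjusted p = 0.0181) for MAP3K8.

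Downstream of the EGR proteins, 9 of 11 partner and textbook target genes were listed, of which 6 rose in S80A and 9 in WT cells and 0 fell in the authors' deposited tables. In limma, 4 of the 9 were higher and 0 lower in S80A than in WT cells at either time. Over all listed genes 20.1% were higher and 10.6% lower at 0 hr, and 29.2% were higher and 17.7% lower at 3 hr. NAB2, a corepressor that binds EGR proteins and is itself an EGR target, had 1633 ± 374 scaled reads in S80A and 2411 ± 148 in WT cells at 3 hr, and 1622 ± 111 in S80A and 737 ± 117 in WT cells at 0 hr. Its S80A means before and after LPS differed by less than their SD. NAB2 was higher in S80A cells before LPS by 1.15 log2 (limma adjusted p = 0.00787), as was EGR3, and its LPS response was smaller, with a difference of -1.73 ± 0.30 log2 (SE, adjusted p = 0.00493). PDGFB, which encodes a platelet-derived growth factor chain, had 1304 ± 406 scaled reads in S80A and 94.4 ± 35.8 in WT cells at 3 hr, and 14.9 ± 4.24 in S80A and 12.2 ± 4.62 in WT cells at 0 hr, a response larger by 3.50 ± 0.56 log2 in S80A cells (SE, limma adjusted p = 0.00397). THBS1, which encodes thrombospondin, had 1088 ± 778 in S80A and 1396 ± 786 in WT cells at 3 hr, and 657 ± 350 in S80A and 80.1 ± 4.95 in WT cells at 0 hr. TNF and ICAM1 rose in both genotypes, with authors' deposited log2 fold changes of 7.64 in S80A and 7.65 in WT cells for TNF, and 4.80 in S80A and 5.47 in WT cells for ICAM1. ICAM1 was higher in S80A than in WT cells by 2.18 log2 at 0 hr (limma adjusted p = 0.0197) and 1.58 log2 at 3 hr (0.00164). TNF passed at neither time (limma adjusted p = 0.673 and 0.421). NAB2 and THBS1 were in the WT list alone.

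Of 7 nuclear receptors looked for as partners or relatives of the NR4A receptors, 3 were listed. In the authors' deposited tables, 3 fell in S80A cells, while 1 rose (NR5A2) and 1 fell in WT cells. RXRA, the retinoid receptor that pairs with NR4A1 and NR4A2 on DNA, had log2 fold changes of -1.36 in S80A and -1.64 in WT cells. NR5A2, a related orphan receptor, had 32.8 ± 17.5 scaled reads in S80A and 32.5 ± 9.64 in WT cells at 3 hr, and 223 ± 120 in S80A and 2.25 ± 1.85 in WT cells at 0 hr, so that it fell in S80A and rose in WT cells to a like level. RARA, in the S80A list alone, had a log2 fold change of -1.67 there. The nuclear RNA MALAT1, looked at as a sign of RNA quality, had 2632 ± 416 in S80A and 1160 ± 215 in WT cells at 3 hr, and 920 ± 166 in S80A and 677 ± 157 in WT cells at 0 hr. The heat shock genes HSPA1A and HSPA1B, 2 of 7 handling genes looked for, had a summed level of 391 to 594 scaled reads in S80A cells at 3 hr, 675 to 989 in WT cells at 3 hr, 226 to 278 in S80A cells at 0 hr and 329 to 340 in WT cells at 0 hr. The sum of these 2 genes was thus lower in every S80A library than in every WT library of the same time. Groups did not overlap for 49.1% of single listed genes at 0 hr and 59.0% at 3 hr. In limma, HSPA1B passed at 3 hr (adjusted p = 0.0272) and HSPA1A did not (0.0781), and at 0 hr neither passed (0.0583 and 0.226). The part of MALAT1 or of the heat shock genes in the differences of the EGR and NR4A genes was not tested.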

How the data were processed

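RNA-seq libraries were made from poly(A) RNA with a stranded TruSeq kit and read from 1 end over 75 bases, with 20 M reads aimed for, per the labels' protocols. FastQC, HISAT, StringTie, Cuffdiff, HTSeq, DESeq2 and the build GRCh38 are named in the submitters' processing notes, with no versions. The 2 deposited tables hold, beside a signal for every library, the authors' log2 fold change (3 hr over 0 hr) with its raw and adjusted p-value. They were limited to genes whose adjusted p-value was below 0.01 and whose fold change exceeded 1 log2 in size. The signal values deposited by the authors are counts of reads over a size factor of the library (0.834 to 1.29), since 100% of values were whole reads within 0.01 once rescaled. In S80A replicate 1 at 0 hr, whose factor is the nearest to 1, 10.8% were whole without rescaling. From their adjusted and raw p-values, the authors had tested 17486 genes for each.

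Genotype differences were tested with limma 3.58.1 (R 4.3.3) on log2(scaled reads + 1) over all 3281 listed genes, with Benjamini-Hochberg adjustment and a threshold of 0.05. The 6 libraries of a time were used, or all 12 for the interaction. The log2(value + 1) scale understates changes of genes with few reads. Alternatives were pseudocounts of 0.5 and 8, a minimum mean of 10 scaled reads, TMM factors, edgeR 4.0.16 (quasi-likelihood) and DESeq2 1.42.0 on the recovered reads, trend and robust settings, a replicate block, other sets of genes or libraries, and leaving out libraries. Deviations from group means were correlated between libraries of the same replicate number. The values were 0.188 to 0.259 between genotypes at 0 hr and 0.064 to 0.196 at 3 hr. Between times they were 0.196 to 0.299 within S80A and 0.153 to 0.343 within WT cells. Each library correlated best with its own number, apart from replicate 3 of the WT cells at 3 hr against those at 0 hr. No replicate pair agreed within sampling noise (chi-square per gene 9.44 to 182). On simulated counts for 3281 genes, 64% of differences of 2 log2 were recovered at 0 hr, 80% at 3 hr and 56% in the interaction, with 5, 4 and 4 false calls.

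Members and gene lists were chosen with earlier results of these data known. Other genes named are, per list, up to 3 with the largest WT fold change and up to 2 with the smallest interaction p, and the 3 listed genes nearest each member. The lists covered other immediate early genes, upstream factors, ERK feedback with MAP3K8, EGR partners and targets, NR4A partners and related receptors, cell type markers, handling and RNA quality. Among markers not described with the results, CD79B (B cell) was listed as falling and CD34 (precursor) and NEAT1 (RNA quality) as rising in both genotypes. Places come from GENCODE 29 and promoters from RefSeq. Figures were drawn with Python 3.11.15 and matplotlib 3.10.9.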

Additional observations from a re-analysis of the deposited data

Results flagged for a closer look

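Of the genes described, 8 had an LPS response that differed between S80A and WT cells by the limma interaction term. All were named for being large or small in p within their lists, 4 of them (MYC, KLF4, NAB2 and THBS1) were listed for 1 genotype alone, and none is an EGR or NR4A gene. The response was larger in S80A cells for MYC, by 2.34 ± 0.30 log2 (SE, limma adjusted p = 0.0014), and for PDGFB, by 3.50 ± 0.56 (adjusted p = 0.00397). It differed by -1.89 ± 0.27 for KLF4 (adjusted p = 0.00213), -2.63 ± 0.71 for DUSP5 (0.0332), -1.48 ± 0.34 for MAP3K8 (0.0181), -1.73 ± 0.30 for NAB2 (0.00493), -3.25 ± 0.81 for THBS1 (0.0251) and -6.24 ± 0.80 log2 for NR5A2 (0.00132). For NR5A2 the sign of the LPS change itself differed, with an authors' deposited log2 fold change of -2.59 in S80A cells and 3.23 in WT cells.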

How the results depend on the processing

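Of 547 values of the 6 genes under alternatives, 500 kept their direction and side of the threshold, 15 passed it newly, 8 no longer passed and 24 changed sign, none of them past the threshold. The causes were not tested. EGR1 at 0 hr was -0.20 with TMM factors, -0.038 in edgeR, -0.28 in edgeR with TMM factors and -0.040 in DESeq2. For the LPS response difference, NR4A2 was -0.014 with a pseudocount of 8 and -0.10 without S80A replicate 1 at both times, and NR4A3 was 0.12 in edgeR, 0.090 in edgeR with TMM factors and 0.12 in DESeq2. Leaving out single libraries gave ranges of -0.34 to 0.40 for EGR1 and -0.50 to 1.29 for EGR4 at 0 hr, -0.85 to 0.070 for EGR3 and -1.33 to 0.12 for NR4A2 at 3 hr, and -0.69 to 0.76 for NR4A2 and -0.66 to 0.26 for NR4A3 in the LPS response difference. The genes of the 6 called at 0 hr were 2 with the minimum mean of 10 (EGR3 and NR4A1) and 0 to 3 without single libraries, against 1 (EGR3). They were 0 in edgeR with the authors' size factors and 0 in DESeq2. The 1 gene called was NR4A1, lower in S80A cells, in edgeR with TMM factors (adjusted p = 0.0363). The same held in limma with trend and robust settings (0.044) and with all 12 libraries (0.0178). At 3 hr the called genes of the 6 were 0 to 2 without single libraries, against 0. For the LPS response difference they were 1 in DESeq2 and 1 with a replicate block (both NR4A1), and 0 to 1 without single libraries, against 0. The replicate block changed no other call of the 6 but EGR4 in S80A cells. Restricting the test to the 1562 genes in both tables gave 1562 calls for LPS in WT cells and 1559 in S80A cells. It gave 409 calls at 0 hr, 617 at 3 hr and 70 for the LPS response difference. Those genes had been selected for an LPS response in both genotypes, so these counts are not like for like with those of all listed genes. Leaving out libraries gave 497 to 1200 calls at 0 hr, against 1007, and 259 to 663 for the LPS response difference, against 464 (805 without S80A replicate 1 at both times). EGR4, EGR3 at 0 hr, and NR4A1 in S80A cells at 0 hr rest on so few reads that counting error limits them.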
